A study of Mus musculus with 6 samples.

Results

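Cwc22, Tcf24, Nnt, Wdfy1 and Entpd4 are 5 of the 24421 genes in the count table of mouse blood and lymphatic endothelial cells (BECs and LECs) with less or more of the histone H3 lysine methyltransferase Dot1l. They were chosen by their reads in the skin libraries and listed by gene symbol, because the skin libraries differed strongly in some of them and because several are known to vary between mouse strains, in sequence or in copy number. The skin differences are therefore given as a description, with no test. Skin BECs were sorted from E15.5 embryos as cells negative for F4/80, CD45 and Lyve1 and positive for CD31. Cont BECs came from Tie2-Cre(-);Dot1l 2f/2f littermates, which the labels call wild type, and cKO BECs from Tie2-Cre(+);Dot1l 2f/2f embryos. Tie2-Cre acts in endothelial cells and also in cells of the blood lineages. RNA of 2 to 3 embryos was pooled into each skin library. The strain of these mice is not given in the sources used here. The cultured cells were the yolk sac line CRL-2581 (BECs) and the embryonic dermal cells C57-6064L (LECs). OE-BECs and OE-LECs carried lentiviral dCas9-VP64 with guides to the Dot1l promoter, which raises transcription of the cell's own gene, and the Cont cells carried the empty lentivirus. GFP-positive cells of 2 to 3 flasks were pooled into each library. There was 1 library for each of the 6 groups, so every comparison describes 2 libraries and none can be set against the spread between replicates.

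Cwc22 is a splicing factor that brings the helicase Eif4a3 to the spliceosome, where the exon junction complex is laid down on mRNA. It lies in a segment of chromosome 2 that is known to be present in different copy numbers in different mice. Tcf24 is a transcription factor of the basic helix-loop-helix (bHLH) family. Nnt is the proton-driven transhydrogenase of the inner mitochondrial membrane, which makes NADPH for the defence against peroxide, and the C57BL/6J strain carries a deletion of exons in it. Wdfy1 is a FYVE and WD40 domain protein that binds a phosphoinositide of early endosomes and acts as an adaptor near Toll-like receptors. Entpd4 is a nucleoside diphosphatase of the Golgi and related compartments.

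Sequences shared with other genes come first, because a count per gene cannot separate reads of identical sequence. In the GENCODE M21 annotation of mm10, Cwc22 lies on the minus strand at chr2:77881159-77946375. The annotation holds 7 further protein-coding genes of nearly the same sequence on the same chromosome, Gm13691 and Gm13693 to Gm13698, between chr2:83955693 and chr2:83993045 on the plus strand. Each has 1 exon of 2493 bases and a coding sequence of 2490 bases, against 2724 in Cwc22. Of 2471 aligned coding bases, 2432 were identical to Cwc22 and 39 differed, which is 98.4% identity, in each of the 7 copies. The coding sequences of 6 of the 7, Gm13691 among them, were identical to each other. The 120 coding bases in which Cwc22 and Gm13691 differed most often (Cwc22 positions 208 to 327, Gm13691 positions 211 to 330, counted from the first base of the start codon) are shown with their 8 differences in capitals, to show how few bases would let a read be assigned to one or the other.
Cwc22: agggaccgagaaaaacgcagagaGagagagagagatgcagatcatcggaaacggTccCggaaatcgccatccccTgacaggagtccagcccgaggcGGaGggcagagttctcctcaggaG
Gm13691: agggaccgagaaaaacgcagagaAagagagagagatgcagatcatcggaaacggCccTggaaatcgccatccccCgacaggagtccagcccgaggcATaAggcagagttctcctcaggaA
The longest run without a difference was 344 bases, and its first 120 bases (Cwc22 coding positions 493 to 612) are shown as an example of sequence that cannot be assigned, with no capitals because no base differs.
Cwc22 and Gm13691: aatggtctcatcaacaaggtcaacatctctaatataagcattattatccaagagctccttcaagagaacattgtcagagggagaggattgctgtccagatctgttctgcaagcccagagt
Of the 3397 stretches of 75 bases in an annotated coding transcript of Cwc22, 723 (21.3%) occurred unchanged in a transcript of another gene. The 7 copies were not analysed here as separate counts.

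Entpd4 lies on the plus strand at chr14:69337174-69367270, and its copy Entpd4b lies at chr14:69555424-69585520 on the same strand. The coding sequences of both genes have 1839 bases and did not differ in any of them. Their first 120 coding bases are shown once, as an example, with no capitals because no base differs.
Entpd4 and Entpd4b: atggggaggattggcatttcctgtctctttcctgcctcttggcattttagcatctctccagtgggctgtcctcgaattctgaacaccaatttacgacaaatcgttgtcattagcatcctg
All 3515 stretches of 75 bases in the Entpd4 transcript were shared with Entpd4b. The count table holds no gene named Entpd4b, so there was no separate count of it. Tcf24 lies on the minus strand at chr1:9960163-9967932. It shared 545 of 4119 stretches (13.2%) with E330040D14Rik, a transcript of the opposite strand whose exons overlap 619 of its exon bases. Nnt, on the minus strand at chr13:119335448-119408997, and Wdfy1, on the minus strand at chr1:79702262-79776143, shared none. The annotation gives the symbol Nnt to 2 gene identifiers, of which the protein-coding one was used for its position. The exons of Wdfy1 overlap those of Mrpl44, on the opposite strand, by 126 bases. The study names the -S option of the counting program but does not say how strand was used, so reads in these overlaps cannot be told apart.

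The deposited counts summed to between 8863349 and 31032461 reads per library, lowest in skin Cont BECs and highest in OE-LECs. Counts of up to 3 reads were taken as background, a floor that was between 0.0967 and 0.338 counts per 1000000 reads of the library (CPM). The ribosomal Rn45s took 5.91% of the reads in cultured Cont BECs and 10.9% in OE-BECs, but at most 0.570% in any other library. CPM keeps these reads in the total, which lowers the CPM of other genes in the cultured BECs. All intervals treat reads as independent counts and cover counting error only. They can be too narrow even for that, because PCR can copy 1 molecule into several reads where no molecular identifiers are used. Dot1l, the targeted gene, had 762 reads in the skin Cont library and 944 in the cKO one, a log2 ratio of -0.07 (95% interval -0.21 to 0.07). The study presents RT-qPCR of Dot1l, with n = 1, as its check of the cKO. Counts of the whole gene do not separate the floxed part from the rest, so the cKO library is described as the library labelled cKO. In cultured cells Dot1l was 2.78-fold higher in OE-BECs and 2.30-fold higher in OE-LECs. All 12 blood endothelial markers were over the floor in every library. Only 2 of 7 lymphatic markers were over the floor in the cultured LECs, where Prox1, the transcription factor that defines LECs, had 0 reads in both libraries. The skin libraries also held reads of other cell types, and fewer cells of a type cannot be told apart from less RNA per cell. From Cont to the library labelled cKO, the summed level of blood endothelial markers went from 6896 to 4470 CPM, with 10 of 12 lower. That of macrophage markers went from 3840 to 6191 CPM, with 12 of 12 higher. In each skin library 6 of 7 lymphatic markers were over the floor. Their sum went from 2788 to 3246 CPM, with 2 higher and 4 lower. Lyve1, for which the sorted cells were negative, had 9105 and 19959 reads, a log2 ratio of 0.75 (0.72 to 0.79). In the skin pair none of the genes in the blood endothelial, macrophage and lymphatic lists passed the rule for a call given next. Keratinocyte markers went from 269 to 429 CPM, with 8 of 11 higher. Of them Krt1 (33 and 254 reads) and Krt10 (51 and 263) were called higher. Fibroblast markers went from 2515 to 1852 CPM, with 6 of 7 lower, and pericyte markers from 724 to 563 CPM, with 6 of 6 lower. No fibroblast or pericyte marker was called. Adipocyte and mast cell markers are given further below. The part of cell types in the results was not tested.

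The study reports Cwc22 as lower in both cKO BECs and cKO LECs, and not in OE cells. Its skin LECs came from the same embryos as the BECs, and their libraries are not among the 6 used here. It presents Cwc22 as an example of activation through Dot1l, with less histone methylation over the gene in LECs when Dot1l was inhibited. Of the 6 libraries here, Cwc22 was high in 1. It had 7290 reads in skin Cont BECs, 958 in the library labelled cKO, and among the cultured cells 1276 in Cont BECs, 1725 in Cont LECs, 1257 in OE-BECs and 1989 in OE-LECs. Its level was 822 CPM (exact Poisson interval 804 to 842) in skin Cont BECs, and 86.4, 72.1, 66.0, 90.2 and 64.1 CPM in the other libraries, in the same order. The skin Cont library thus stood alone, while the other 5 libraries lay within a 1.41-fold range of CPM. That range included the library labelled cKO and all cultured cells. Skin Cont BECs were 9.12-fold (interval 8.59 to 9.69) above the next library, OE-BECs. In CPM, OE-BECs and the library labelled cKO had a ratio of 1.04 (0.959 to 1.14). Rn45s reads lower the CPM of OE-BECs, so equal levels are not read from this ratio. Cont LECs and OE-LECs did not differ beyond counting error, with a ratio of 1.03 (0.966 to 1.10). Ranked by reads, Cwc22 was gene 101 in skin Cont BECs but gene 2894 in the one labelled cKO.

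Tcf24 was read in the skin alone. It had 863 reads (97.4 CPM, interval 91.0 to 104) in Cont BECs against 10 reads (0.902 CPM, 0.433 to 1.66) in the one labelled cKO. All 4 cultured libraries had 0 reads of it, with exact Poisson upper limits between 0.119 and 0.265 CPM. The skin libraries therefore differed by 108-fold in CPM (58.4 to 226), and the library labelled cKO was still above the cultured ones. At least 50% of its level in skin Cont BECs, together with no more than 3 reads in each cultured library, was found for 101 genes, Tcf24 included, of which 4 were called lower and 0 higher in the library labelled cKO. These genes were selected on a high level in Cont BECs, which favours lower calls, so nothing is read from the 4 beside the 2.41% called lower over all genes.

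Wdfy1 was highest in skin Cont BECs and lowest in the library labelled cKO. It had 808 reads (91.2 CPM) in skin Cont BECs, 363 (32.7 CPM) in the library labelled cKO, 1249 (70.6 CPM) in cultured Cont BECs, 1631 (62.4 CPM) in Cont LECs, 718 (51.5 CPM) in OE-BECs and 2074 (66.8 CPM) in OE-LECs. Here the library labelled cKO was the one that stood apart at the lower end, since OE-BECs, the next library, were 1.57-fold higher (1.39 to 1.79). Skin Cont BECs were 1.29-fold (1.18 to 1.41) above cultured Cont BECs in CPM. Cultured Cont BECs and OE-LECs had a ratio of 1.06 (0.984 to 1.13) in CPM. Rn45s reads lower the CPM of cultured Cont BECs, so equal levels are not read from this ratio.

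Nnt differed most between skin and culture. It had 1149 reads (129.6 CPM) in skin Cont BECs, 1272 (115 CPM) in the library labelled cKO, 667 (37.7 CPM) in cultured Cont BECs, 856 (32.8 CPM) in Cont LECs, 435 (31.2 CPM) in OE-BECs and 955 (30.8 CPM) in OE-LECs. The library labelled cKO, the lower of the skin libraries, was 3.04-fold (2.77 to 3.35) above the highest cultured one. All 6 libraries held Nnt reads, and counts per gene do not show which exons they came from.

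Entpd4 was at or under the floor in every library, with 3 reads in the library labelled cKO, 1 in cultured Cont BECs and 0 in the other 4. No fold is given for it. Among 182 protein-coding genes whose 75-base stretches were all shared with another gene, 87.9% were at or under the floor in all 6 libraries, against 19.01% of the 11842 genes with no shared stretch. These classes can differ in more than shared sequence, and the cause of the low counts of Entpd4 was not tested.

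**Figure D1:**
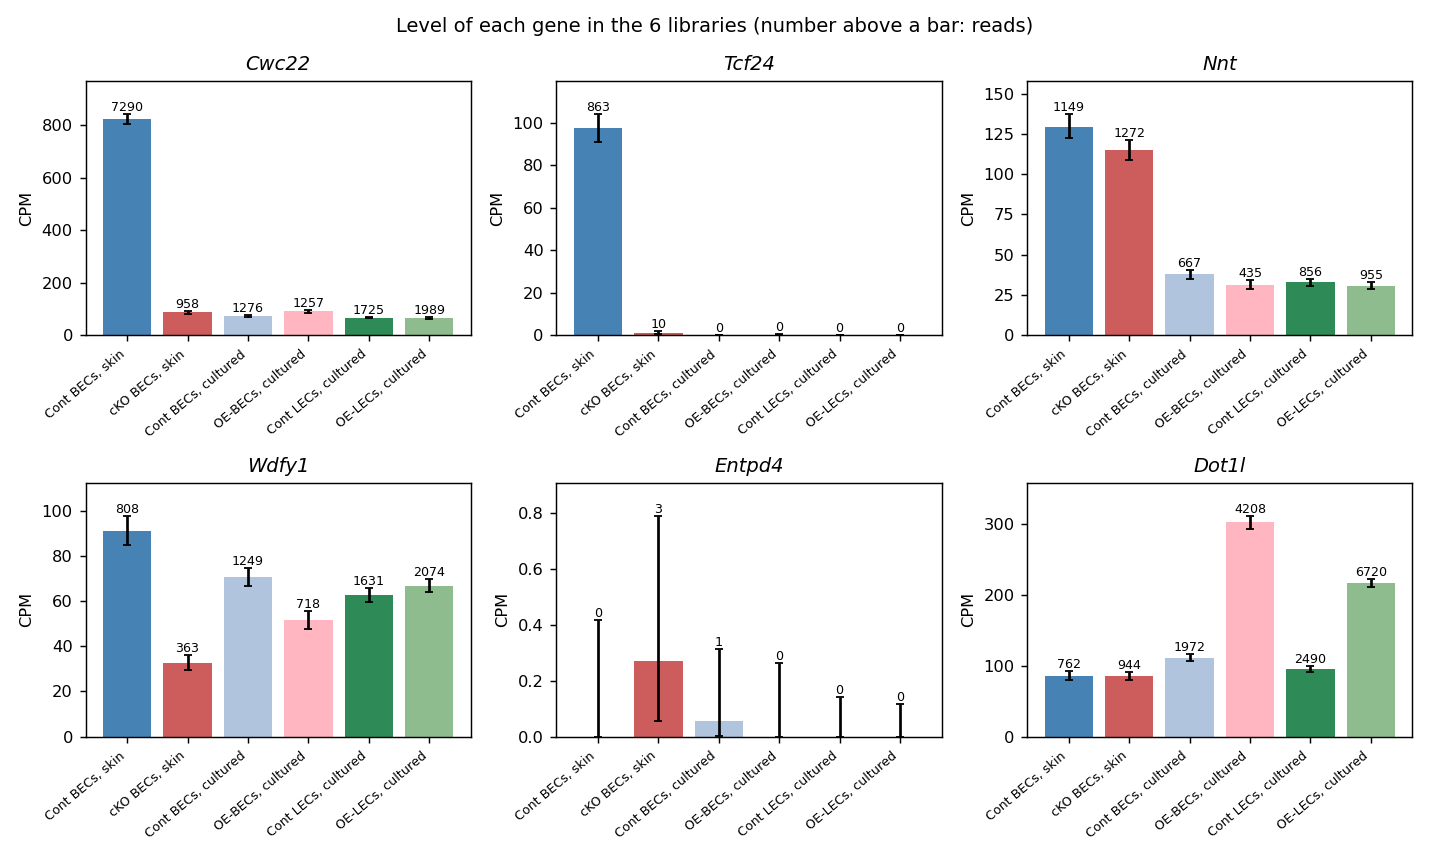
CPM (vertical axis, linear, from 0) of Cwc22, Tcf24, Nnt, Wdfy1, Entpd4 and the targeted gene Dot1l in the 6 libraries (horizontal axis), with exact Poisson 95% intervals as error bars and the number of reads above each bar. Cwc22 and Tcf24 are high in skin Cont BECs alone, Nnt is higher in both skin libraries, Wdfy1 is lowest in the library labelled cKO, and Entpd4 has at most 3 reads in any library.

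Levels of different genes were compared per length, as CPM per kb of annotated exon. In skin Cont BECs, Cwc22 had 121 CPM per kb, Tcf24 23.2, Nnt 18.4, Wdfy1 14.1 and Dot1l 9.88. In the library labelled cKO, the level per kb was 16.3 for Nnt, 12.7 for Cwc22, 5.05 for Wdfy1 and 0.215 for Tcf24. Cwc22 was thus the first of the listed genes in Cont BECs, whereas it came after Nnt in the one labelled cKO.

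The skin comparison asked which genes differ when Dot1l is deleted in BECs. Counts were normalized by the median of ratios in the 2 libraries, and the rule called a gene if the larger of its normalized counts reached 5 and exceeded the smaller more than 3 times. Of the 5 genes, 2 (Cwc22 and Tcf24) were called lower in the library labelled cKO and 0 were called higher, where 2.41% of the 15993 genes that reached the minimum were called lower and 5.17% were called higher. The skin reads chose the genes, so nothing is read from this count. Cwc22 went from 8310 to 840 normalized counts, 9.89-fold lower, a log2 ratio of -3.31 (-3.40 to -3.21). Tcf24 went from 984 to 8.77 normalized counts, 112-fold lower, a log2 ratio of -6.81 (-7.87 to -5.92). Wdfy1 went from 921 to 318 normalized counts, a log2 ratio of -1.53 (-1.71 to -1.35), and at 2.89-fold was not called. Nnt had a log2 ratio of -0.23 (-0.35 to -0.11) and was not called. Among genes lower in the library labelled cKO, those nearest to the 3-fold limit with at least 100 normalized counts were Gimap4 (3.002-fold), Tub (3.04-fold) and 2610305D13Rik (3.05-fold) inside it, and Rnf122 (2.98-fold), Eln (2.97-fold) and Mb21d2 (2.97-fold) outside.

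**Figure D2:**
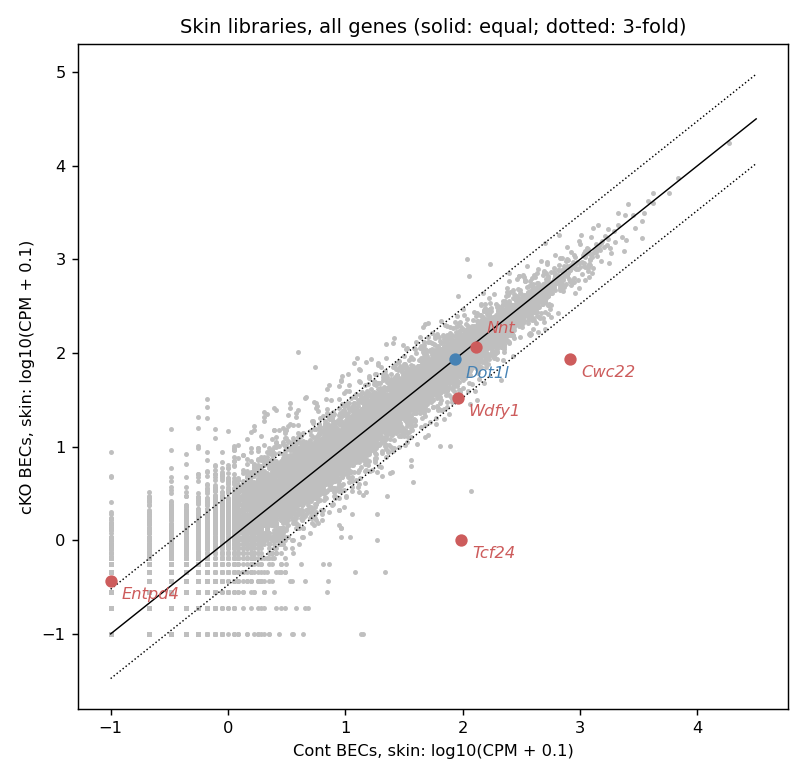
Level of every gene in skin Cont BECs (horizontal axis) and in the library labelled cKO (vertical axis), both as log10 of CPM plus 0.1, with the listed genes in red and Dot1l in blue. The solid line marks equal levels and the dotted lines a 3-fold difference. Tcf24 and Cwc22 lie far below the lower dotted line, Wdfy1 next to it, and Nnt and Dot1l near the solid line.

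Strong calls among highly expressed genes were few. Among genes that reached 100 normalized counts in the skin, 0.509% of 10212 genes were called lower and 1.19% were called higher. Of the 118 genes with at least as many normalized counts as Cwc22, Cwc22 itself was the 1 called lower, and 2 were called higher. After Cwc22, the genes called lower with most counts in Cont BECs were Gimap4 (2707 normalized counts), Tmem8 (2152) and Palmd (1546), and their folds were 3.002, 4.35 and 3.30. Tcf24 was placed among 2778 genes with at least as many counts, of which 9, itself included, were called lower and 16 higher. The skin reads chose Cwc22 and Tcf24, so nothing is read from their places.

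Raising Dot1l in cultured cells gave no call for any of the 5 genes. In these comparisons the minimum was 3 normalized counts. In OE-BECs, 8.02% of 14792 genes were called higher and 5.27% were called lower, and from 100 normalized counts upward 0.527% and 1.55%. In OE-LECs, 2.77% of 13883 genes were called higher and 2.09% were called lower, and from 100 normalized counts upward 0.59% and 0.238%. Cwc22 had a log2 ratio of 0.36 (0.25 to 0.47) in OE-BECs and -0.03 (-0.12 to 0.07) in OE-LECs. Nnt had a log2 ratio of -0.23 (-0.41 to -0.06) in OE-BECs and -0.07 (-0.21 to 0.06) in OE-LECs. Wdfy1 had a log2 ratio of -0.42 (-0.55 to -0.28) in OE-BECs and 0.12 (0.02 to 0.21) in OE-LECs. For Cwc22 and Nnt in OE-LECs the interval includes 0, and a difference outside it was not seen at this depth. Tcf24 and Entpd4 had too few reads in the cultured cells for a ratio, so the OE comparisons carry no measurement of them.

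**Figure D3:**
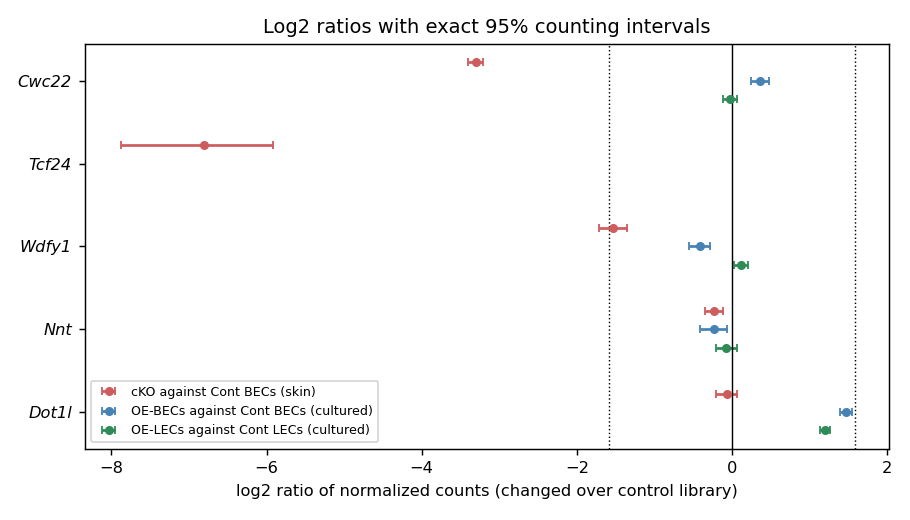
Log2 ratio of normalized counts, changed library over control library (horizontal axis), with exact 95% counting intervals, for each gene (vertical axis) in the 3 comparisons (colours). The dotted lines mark 3-fold. Cwc22 and Tcf24 lie left of the lower dotted line in the skin comparison alone, and every ratio of Cwc22, Wdfy1 and Nnt in cultured cells is between -0.42 and 0.36.

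The genes beside each locus were described to see whether the differences extended along the chromosome. Within 1 Mb of the start of Cwc22 the table holds 8 genes, of which 5 reached the minimum in the skin and 0 were called, with log2 ratios between -1.36 and 0.99 and a median of -0.49. The nearest on either side with at least 100 reads were Sestd1, 666 kb away, with 927 and 856 reads (log2 ratio -0.49), and Ube2e3, 922 kb away, with 739 and 683 reads (log2 ratio -0.49). The difference in Cwc22 was larger than that of any of the 5 neighbours. Cwc22 was chosen by its skin difference and the neighbours were not, so nothing is read from this. Within 1 Mb of Tcf24, 2 of 13 genes at the minimum were called lower (2.41% over all genes), on few reads (Snord87 with 15 and 3, Ppp1r42 with 5 and 1), and the median log2 ratio was -0.17. Its nearest neighbours Snhg6, with 83 and 104 reads, and Cspp1, with 944 and 1093 reads, had log2 ratios of -0.05 and -0.17. Within 1 Mb of Wdfy1, 0 of 7 genes were called, and the overlapping Mrpl44, with 100 and 111 reads, had a log2 ratio of -0.23. Within 1 Mb of Nnt, 1 of 9 genes was called lower (Ccl28, with 21 and 2 reads). Within 1 Mb of Entpd4, 0 of 16 genes were called. Over 10 Mb, 7 of 112 genes around Cwc22 were called higher and 5 lower, against 0 and 4 of 46 around Tcf24, 8 and 4 of 132 around Wdfy1, 2 and 2 of 38 around Nnt, and 3 and 2 of 141 around Entpd4. Over all genes 5.17% were called higher and 2.41% lower. Around Dot1l itself, on chromosome 10, 4 of 98 genes within 1 Mb were called higher and 1 lower.

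**Figure D4:**
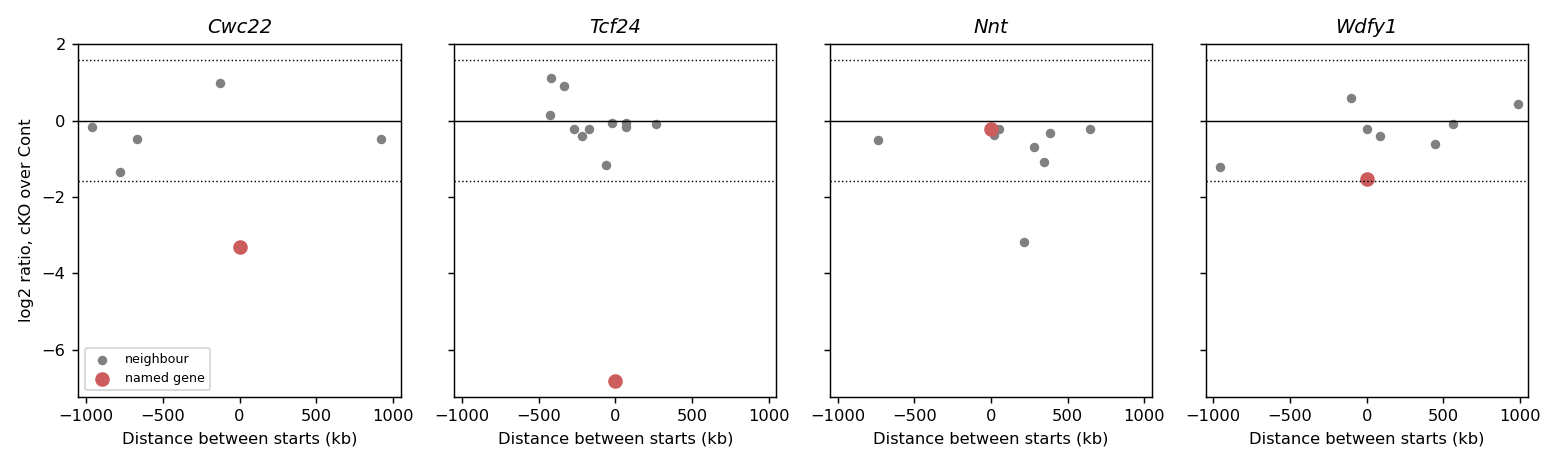
Log2 ratio, library labelled cKO over Cont BECs (vertical axis), of genes within 1 Mb of Cwc22, Tcf24, Nnt and Wdfy1 that had at least 20 reads in the skin pair, by the distance between gene starts in kb (horizontal axis). The named gene is red at distance 0, and dotted lines mark 3-fold. The neighbours of Cwc22 lie between -1.36 and 0.99 while Cwc22 lies at -3.31, and the grey point far below the lower line near Nnt is Ccl28.

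The genes that work with each of the 5 were taken from lists and described by counts, beside the median over all genes, which was within 0.01 of 0 on the log2 scale in each comparison. Of all genes at the minimum, the skin pair called 5.17% higher and 2.41% lower. From 100 normalized counts upward these shares were 1.19% and 0.509%. With shares this low, a list without calls is not read as a result. Of 21 exon junction and mRNA decay partners of Cwc22, all reached the minimum and 0 were called in any comparison, with median log2 ratios of -0.02 in the skin, 0.14 in OE-BECs and 0.01 in OE-LECs. The best expressed in the skin were Smg1, the kinase of nonsense-mediated decay, with 4791 and 5584 skin reads (log2 ratio -0.16), and Acin1, a protein bound to the junction complex, with 2125 and 3227 (0.22). Eif4a3, the direct partner of Cwc22, had 817 and 1049 reads, a log2 ratio of -0.02 (-0.15 to 0.12), and is named after its value was seen. Of 18 spliceosome factors, 0 were called in any comparison, and the skin median was 0.02. Among them Prpf8, at the core of the spliceosome, had a log2 ratio of -0.13 and the helicase Snrnp200 one of -0.02. Cwc22 was chosen by its skin difference, so nothing is read from its call beside these lists.

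Of 25 bHLH factors and partners, 14 reached the minimum in the skin, with a median log2 ratio of -0.24. The 2 that were called, both higher in the library labelled cKO, had few reads: Hand2 with 2 and 15, and Scx with 4 and 17. Tcf4, a widely expressed E protein that pairs with other bHLH factors, had 8474 and 6587 reads and a log2 ratio of -0.74 (-0.79 to -0.69), and Tcf12, of the same class, one of -0.38. Tcf23 and Msc, close relatives of Tcf24, had at most 3 reads in either skin library, so Tcf24 was the one of these 3 that was read there (Tcf23 and Msc are named after their values were seen).

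Of 17 genes for mitochondrial NADPH and peroxide defence, 0 were called in any comparison, and the skin median was 0.27. The best expressed in the skin were Glud1, the glutamate dehydrogenase, with 2873 and 3067 reads (log2 ratio -0.28, interval -0.36 to -0.21), and Idh2, which like Nnt makes NADPH in mitochondria, with 1563 and 2448 (0.27, interval 0.18 to 0.36). These 2 thus lay on opposite sides of 0. Of 21 FYVE, phosphoinositide and Toll-like receptor adaptor genes beside Wdfy1, 0 were called in any comparison. In the skin 14 of them were higher and 7 lower, with a median of 0.16, where Wdfy1 itself was at -1.53. Wdfy3, a large FYVE protein of selective autophagy, had 3784 and 6217 reads (log2 ratio 0.34), and Eea1, the early endosome tether, 2122 and 3707 (0.43). Of 12 nucleotidases and related genes of the table listed beside Entpd4, 11 reached the minimum in the skin and 1 was called higher, Entpd3, with 2 and 102 reads. Entpd1, the ectoenzyme CD39 of vascular endothelium, had 3302 and 2697 reads and a log2 ratio of -0.67. In skin Cont BECs, the other Entpd genes of the list had 10 reads (Entpd2), 2 (Entpd3), 185 (Entpd5), 118 (Entpd6), 332 (Entpd7) and 0 (Entpd8), and are named after their values were seen. Entpd3 had at most 2 reads in each cultured library. Entpd3 and Entpd8 also had low counts in skin Cont BECs, and the cause of those of Entpd4 was not tested.

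The genes whose profile over the 6 libraries was most like each of the 5 were found by the distance between centred log2 profiles, over 9449 genes with at least 20 CPM in some library. The profiles share the skin contrast, so likeness is a description. For Cwc22 they were AI506816, with 320 and 67 skin reads, and Socs3 and Irf1, both of which answer cytokine signals, at distances of 0.65, 1.20 and 1.21. For Tcf24 they were Car3, a carbonic anhydrase of fat and muscle, Mrgprb1, a receptor of the mast cell list, and Fibin, at 1.56, 2.06 and 3.15. Car3 had 1036 and 36 skin reads, Mrgprb1 191 and 4, and Fibin 213 and 57, and all 3 had at most 1 read in each cultured library. The summed adipocyte markers went from 964 to 618 CPM in the skin, with 5 of 6 lower and 3 called (Adipoq with 42 and 1 reads, Plin1 with 38 and 0, Cidec with 15 and 4). Most of that sum was Fabp4, which capillary endothelium also expresses, with 7483 and 5829 reads, while Lpl had 479 and 649. The summed mast cell markers went from 2891 to 4063 CPM, with 7 of 10 higher and Mrgprb1 the 1 that was called, lower. The part of these cell types in the Tcf24 reads was not tested. For Nnt the nearest profiles were Parg, Rhobtb1 and Zfp266, at 0.14, 0.20 and 0.21, and for Wdfy1 they were Slc41a1, Klhl2 and Pls3, at 0.51, 0.56 and 0.56. Slc41a1, a magnesium transporter, had 719 and 335 skin reads, a log2 ratio of -1.48 beside -1.53 for Wdfy1. Entpd4 had too few reads for a profile.

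A further 36 genes known to differ in expression or copy number between mouse strains were described in the same libraries. In the skin 27 reached the minimum, of which 17 were higher and 10 lower in the library labelled cKO, and the median log2 ratio was 0.41. The rule called 3 of them higher and 2 lower, where it called 5.17% and 2.41% of all genes. Trim12a, a member of the Trim5 cluster of antiviral genes, had 0 reads in the skin Cont library, 95 in the library labelled cKO and 0 in all 4 cultured libraries, a difference of at least 19.4-fold. Gpnmb, a glycoprotein that carries a stop codon in DBA/2J mice, had 5 and 295 skin reads and at most 2 in any cultured library. It is also a gene of macrophages, whose summed markers were higher in the library labelled cKO, and their part in it was not tested. Dnah8, an axonemal dynein in a part of chromosome 17 near Glo1, had 115 and 738 reads, a 4.94-fold difference, and 5 or 6 reads in each cultured library. Glo1, whose duplication is shared by some strains, had 494 and 1001 reads and a log2 ratio of 0.64 (0.48 to 0.80). It was not called, and is named after its value was seen. Gbp2b, an interferon-induced GTPase, had 14 reads in skin Cont BECs against 0 with cKO, at least 4.31-fold lower, but 218 to 546 in the cultured libraries. Zfp600, with 5 and 0 reads, was the other gene called lower.

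Erdr1, with 655 and 292 reads, was 2.91-fold lower, and Ifi202b, a DNA-binding interferon-inducible gene that is poorly expressed in some strains, with 763 and 349 reads, was 2.84-fold lower. Nlrp1b, an inflammasome sensor that varies among strains, was 2.71-fold higher, with 69 and 243 reads. Casp4, the inflammatory caspase that is also called caspase-11, was 2.54-fold lower, with 281 and 144 reads. None of these 4 was called, and they are named after their values were seen. In cultured cells, Ifi202b was called higher in OE-LECs, with 898 and 4128 reads (3.92-fold), and was 2.25-fold higher in OE-BECs, with 419 and 724 reads. The list had 2 genes called higher and 3 lower in OE-BECs of 23 at the minimum, where 8.02% and 5.27% of all genes were called. In OE-LECs it had 2 higher and 1 lower of 22, where 2.77% and 2.09% of all genes were called.

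**Figure D5:**
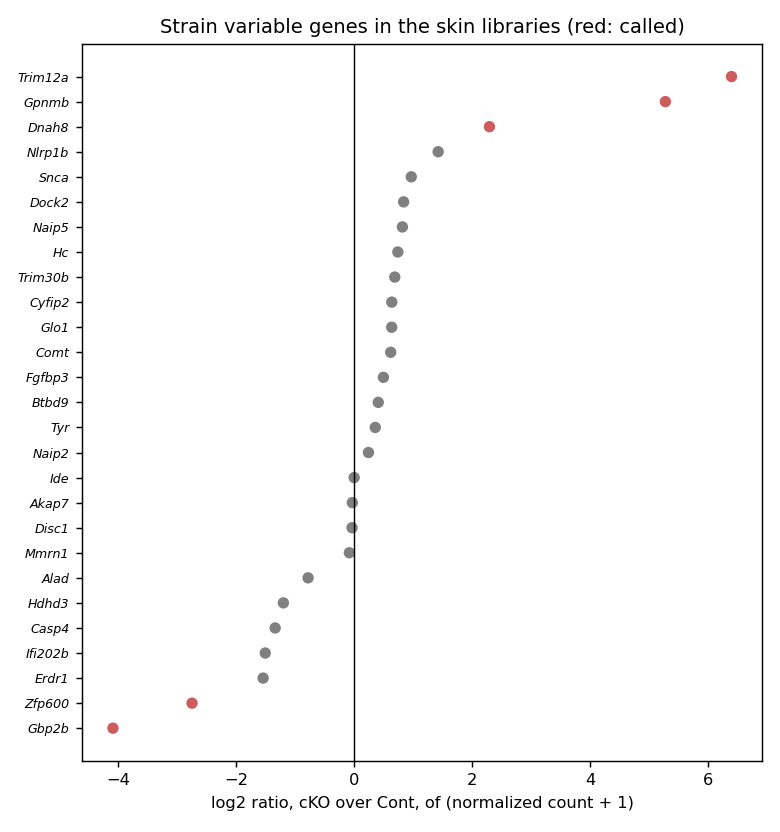
Log2 ratio of normalized count plus 1, library labelled cKO over Cont BECs (horizontal axis), for the 27 strain variable genes that reached the minimum (vertical axis), with called genes in red. Trim12a, Gpnmb and Dnah8 are called on the higher side and Zfp600 and Gbp2b on the lower side, while the others lie between them.

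Genes read in 1 skin library and at or under the floor in the other were counted as the nearest to on or off. Among genes that reached 50 normalized counts, 4 were read in Cont BECs alone (Btla, Klrb1f, Rprl2 and Rprl3) and another 6 in the library labelled cKO alone (Cd300lb, Cd5l, Cftr, Entpd3, Tnni3 and Trim12a). They are named after their values were seen. Neither Cwc22, with 958 reads in its lower library, nor Tcf24, with 10, was among them. The embryos of a pool can also differ in sex. Xist, the RNA of the inactive X chromosome, had 16143 and 12852 skin reads, and the Y-linked Ddx3y had 839 and 1106, so both pools held reads of both kinds. The group and the genetic makeup of the pooled embryos cannot be told apart with 1 library for each.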

How the data were processed

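The authors made RNA-seq libraries with ScriptSeq v2, trimmed reads with skewer 0.2.2, aligned them to mm10 with STAR 2.7.9a and counted them with VERSE 0.1.5 and its -S option. They deposited raw counts of reads for 24421 gene symbols in 6 libraries. How reads that match several genes, or overlapping genes on both strands, were treated under that option is not given in the sources used here. With 1 library per group, no test was made. Counts were normalized here on each pair of libraries by the median of ratios of DESeq2 1.42.0 in R 4.3.3, and genes were called by the rule in the study's methods. CPM is the count per 1000000 reads. Log2 ratios and folds have exact (Clopper-Pearson) 95% intervals, and levels have exact Poisson intervals. Where 1 library had 3 reads or fewer, its fold is a lower bound, and none is given where both had. List medians use a pseudocount of 1. Positions came from GENCODE M21 for 23376 genes (95.7%). Annotated transcripts were compared in stretches of 75 bases on either strand. The rule for calls and the intervals of ratios were tested on simulated Poisson counts with planted changes, which hold no spread between replicates. Python 3.11.15, scipy 1.17.1 and pandas 2.3.3 were used.

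The genes named are the 5, Dot1l, annotated copies and overlapping transcripts, up to 4 called genes of each list with at least 100 normalized counts or else its 2 best expressed genes, the nearest neighbours with at least 100 reads, and the 3 most similar profiles. Genes at the 3-fold limit and the genes called lower with most counts were chosen by their skin values. Others are named only where the text says that they were named after their values were seen or gives a count of 5 or fewer. The genes and lists were chosen with earlier results of these data known. Alternatives tried were median of ratios factors over the 6 libraries together, TMM factors of edgeR 4.0.16, total counts with or without the ribosomal Rn45s, a pseudocount of 1, a minimum of 10 reads in the pair and a minimum of 20 normalized counts.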

Additional observations from a re-analysis of the deposited data

How the results depend on the processing

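No paired analysis was possible because each group has 1 library, and leaving out a library was not possible for the same reason. Of 102 values recomputed for 16 results, 90 stayed within the limits set for them. None of the 60 recomputed ratios of Cwc22, Tcf24, Nnt and Wdfy1 moved beyond its counting interval, and none of their calls changed. The other 12 values were counts of called genes. A minimum of 20 normalized counts gave 372 genes higher and 153 lower in the skin, 222 higher and 261 lower in OE-BECs, and 109 higher and 51 lower in OE-LECs. A minimum of 10 reads in the pair gave 440 higher and 459 lower in OE-BECs and, for OE-LECs, 193 higher and 114 lower. Size factors from all 6 libraries gave 246 higher and 168 lower in OE-LECs. The first 2 settings leave out genes with few reads, and for the third the cause was not tested. The limits for counts of called genes were wide. In the skin, the main setting called 827 genes higher and 386 lower. Counts within the limits included 1063 and 556 with size factors from all 6 libraries, and 655 and 265 with a minimum of 10 reads in the pair. Tcf24 and Entpd4 had too few reads in culture, and Entpd4 in the skin, to give a ratio under any setting.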
